A study of Mus musculus with 10 samples.

Results

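The NK and innate lymphoid genes examined here were 10 genes chosen by name among the 24062 gene rows of 10 mouse RNA-seq count tables. They were the transcription factor genes *Zbtb16*, *Nfil3*, *Tbx21*, *Eomes* and *Rora*, the receptor genes *Klrd1* and *Ncr1*, and the cytotoxic effector genes *Gzma*, *Gzmb* and *Prf1*. All 10 were found. Of these, 6 passed the filter on low counts (1 CPM, counts scaled to library size, in no fewer than 2 libraries) and were tested, and 4 (*Tbx21*, *Eomes*, *Ncr1* and *Prf1*) did not and are given as counts.

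The libraries came from C57BL/6J bone marrow progenitors that lack lineage markers and carry SCA1 and KIT (LSK cells). By the study's methods, the replicates of a group came from separate LSK isolates, and the DN stages were sorted from cultures of the same isolates. All cultures shared SCF, FLT-3 ligand, IL-6 and IL-11. The control cells grew on human IgG1 in place of the Notch ligand and were harvested on day 14 (IgG, 4 libraries named D1, D2, R1 and R2). DN1 (KIT++CD44+CD25-), DN2a (KIT++CD44+CD25+) and DN2b (KIT+CD44loCD25+) cells were sorted from cultures on a high density of the Notch ligand Delta1, with 2 libraries each, named here by the years 2012 and 2013 in their labels. IL-7 was present in the DN2a and DN2b cultures and absent from the DN1 cultures, so stage and IL-7 cannot be told apart between DN1 and the DN2 groups. Neither can Notch ligand and sorting between the DN and IgG groups. By the study's methods, IL-7 was added to Delta1 cultures at day 14, and none is described for the IgG cultures. Between the DN2 groups and IgG, IL-7 and culture time therefore cannot be told apart from ligand and sorting either.

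Natural killer (NK) cells and the other innate lymphoid cells arise from lymphoid progenitors that overlap with those of T cells. NFIL3, the *Zbtb16* product PLZF, T-BET, EOMES and RORα are transcription factors of innate lymphoid development, and CD94 (*Klrd1*) and NKp46 (*Ncr1*) are receptors on NK cells. Killer lymphocytes release perforin, which opens the target cell membrane, and granzymes, the serine proteases that enter through it. Early thymic progenitors can still yield NK cells, and that potential is lost as cells commit to the T lineage around the DN2b stage. The comparisons ask which of these innate genes were still expressed along that path.

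Depth lay between 12354635 and 35367925 reads counted on genes, and the floor of 3 counts corresponded to between 0.0848 and 0.243 CPM before TMM scaling. Of the 3 sort markers, *Il2ra* and *Cd44* followed the labels and *Kit* did so in part. *Il2ra*, which encodes CD25, was at 18.9 and 23.2 CPM in DN1 and between 1170.2 and 2176 CPM in DN2a and DN2b, and *Cd44* was at 116 and 159 CPM in DN1, 44.3 and 54.2 CPM in DN2a, and 13.5 and 10.9 CPM in DN2b. *Kit* was at 367 and 319 CPM in DN1, and DN2a (173 and 212 CPM) overlapped DN2b (130 and 176 CPM). The DN1 2012 library stood apart from DN1 2013 in neutrophil and mast cell genes. Its 7 neutrophil markers summed to 2379 CPM, against 63.0 CPM in DN1 2013, and its 10 mast cell and basophil markers to 2232 CPM, against 579.8 CPM. In the IgG libraries the neutrophil sum was 19028 to 67768 CPM. The macrophage sums were alike (31.7 and 36.2 CPM), and the dendritic cell sum was higher in DN1 2013 (208 CPM) than in DN1 2012 (56.0 CPM). Most of the DN1 2013 dendritic cell sum was *Itgax* (116 CPM) and *Flt3* (90.0 CPM). *Siglech*, *Xcr1* and *Clec9a*, of the same list, had at most 3 counts in either DN1 library. The values of members in DN1 that are called or close to the threshold, and the calls of the further lists, are therefore given without the 2012 library too.

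The 2 granzyme genes carried the largest differences among the members, and the 250 bases before their RefSeq starts (GRCm38.p6) are shown for that reason. Both genes lie on the minus strand, and the sequences run 5′ to 3′ on it. Capitals mark matches, on either strand, to TGTGGT (the core letters of Runx sites, ACCACA on the other strand) and to GTGTGA (the core letters of T-box sites, TCACAC on the other strand).
Gzma, chr13:113100982-113101231: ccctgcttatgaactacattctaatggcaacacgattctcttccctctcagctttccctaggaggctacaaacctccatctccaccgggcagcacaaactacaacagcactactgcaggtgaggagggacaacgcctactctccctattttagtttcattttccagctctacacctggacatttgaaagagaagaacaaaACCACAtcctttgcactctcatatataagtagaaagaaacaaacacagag
Gzmb, chr14:56262335-56262584: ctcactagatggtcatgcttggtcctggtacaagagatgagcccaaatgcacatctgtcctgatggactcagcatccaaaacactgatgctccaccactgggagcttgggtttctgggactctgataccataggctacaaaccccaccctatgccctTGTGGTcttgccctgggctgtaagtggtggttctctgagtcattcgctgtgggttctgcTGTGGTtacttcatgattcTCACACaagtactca
The Gzma window held a Runx match starting 50 bases before the start. The Gzmb window held Runx matches 93 and 34 bases before the start and a T-box match 15 bases before it. Over the 250 upstream bases of all 32851 RefSeq windows, 14.05% held the Runx letters, 12.3% the T-box letters and 21.6% TGGGAA, the letters of the Notch partner RBPJ, which neither granzyme window held. Matches are letters only and were not tested as sites. The RefSeq start of Gzmb lies 74 bases before the one in GENCODE vM21.

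Of the 10 members, 8 had a RefSeq window of 300 bases around the start. CpG content is given as the observed over expected ratio, for which the median of all windows was 0.384. The ratio was 0.306 for *Gzma*, 0.103 for *Gzmb*, 0.203 for *Prf1* and 0 for *Ncr1*. It was 0.607 for *Eomes* and 0.754 for *Tbx21*, and highest at 1.10 for *Nfil3* and 1.05 for *Rora*. The effector and receptor genes with a window thus lay below the median and the transcription factor genes above it. *Ncr1* held Runx and T-box letters, *Prf1* held Runx and RBPJ letters, and *Tbx21* held RBPJ letters. *Zbtb16* and *Klrd1* had no entry.

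*Gzma*, which encodes the tryptase granzyme A, rose from near the floor in IgG to a mean of 3346 CPM in DN2b. The gene spans chr13:113093825-113100981 (mm10). Its 4 IgG libraries held 10, 3, 3 and 6 counts (D1, D2, R1 and R2), or 0.242 ± 0.215 CPM (SD, n = 4). The DN1 libraries were at 331 CPM in 2012 and 203 CPM in 2013, the DN2a libraries at 3254 and 861 CPM, and the DN2b libraries at 4158 and 2534 CPM. Every DN library lay far above every IgG library, both DN2a libraries lay above both DN1 libraries, and DN2a and DN2b overlapped. In DN2b 2012 the gene took 0.405% of all counts on genes and ranked 5 of 22724 genes by CPM per kb of exon, and in DN1 2013 it ranked 214.

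Over IgG, the log2FC of *Gzma* was 10.21 ± 0.77 (standard error) in DN1 (adjusted p = 8.7e-05), 13.16 ± 0.83 in DN2a (adjusted p = 2.09e-05) and 13.86 ± 0.85 in DN2b (adjusted p = 1.74e-05). Without DN1 2012 the DN1 value was 9.82 (adjusted p = 0.000491). The DN2a value was 11.90 without DN2a 2012 and 13.81 without DN2a 2013, and without IgG D1 the 3 values were 10.88, 13.83 and 14.53, all still called. They rest on 22 control counts in all, so their exact size is uncertain. Between the stages, *Gzma* rose in DN2b over DN1 by a log2FC of 3.65 ± 0.76 (adjusted p = 0.0471). The call was close to the threshold. It was lost without any 1 of the DN1 or DN2b libraries (log2FC 3.25 to 4.04, adjusted p from 0.108 to 0.217) and without IgG R1 (adjusted p = 0.0619) or R2 (adjusted p = 0.0733), while the direction held. Library size scaling (log2FC 3.43, adjusted p = 0.0532) and a fit of the 6 DN libraries alone with no block by year (adjusted p = 0.0612) also missed the threshold, and the same fit with the block passed it (adjusted p = 0.0228). In DN2a over DN1 the log2FC was 2.95 ± 0.73 (adjusted p = 0.166), which DESeq2 called (adjusted p = 0.00168). It was 3.34 without DN1 2012 (adjusted p = 0.571), 1.70 without DN2a 2012 (adjusted p = 0.878) and 3.61 without DN2a 2013 (adjusted p = 0.264). In DN2b over DN2a it was 0.70 ± 0.68 (adjusted p = 1), with the DN2b library above the DN2a library of the same date in both pairs. With the year as a block that value was 0.92 (adjusted p = 0.999), and it was 1.95 without DN2a 2012 and 0.0411 without DN2a 2013.

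*Gzmb*, at chr14:56258838-56262260, encodes granzyme B, a protease that cleaves after aspartate and triggers apoptosis. Mast cells can also make it. The IgG libraries held 14, 22, 8 and 24 counts (0.691 ± 0.328 CPM). DN1 was at 1937 CPM in 2012 and 229.6 CPM in 2013, DN2a at 339.8 and 439.8 CPM, and DN2b at 90.3 and 111 CPM. The DN2b libraries were the lowest of the 6 DN libraries, and the DN1 libraries lay on either side of DN2a.

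Over IgG, *Gzmb* rose by a log2FC of 10.64 ± 0.88 in DN1 (adjusted p = 0.000132), 9.17 ± 0.84 in DN2a (adjusted p = 0.000134) and 7.21 ± 0.79 in DN2b (adjusted p = 0.00027). Without DN1 2012 the DN1 value was 8.41 and still passed (adjusted p = 0.000117), and without DN1 2013 it was 11.49. No difference between stages passed the test. The log2FC was -1.95 ± 0.82 in DN2b over DN2a (adjusted p = 1, DN2b below DN2a in both date pairs) and -3.43 ± 0.87 in DN2b over DN1 (adjusted p = 0.0991). The last value rested on DN1 2012, without which it was -1.19 (adjusted p = 0.679), and without DN1 2013 it was -4.27 (adjusted p = 0.00901). DESeq2 called it too (adjusted p = 0.000825). In DN2a over DN1 the log2FC of -1.48 ± 0.81 (adjusted p = 0.555) turned to 0.76 (adjusted p = 1) without DN1 2012.

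**Figure D1:**
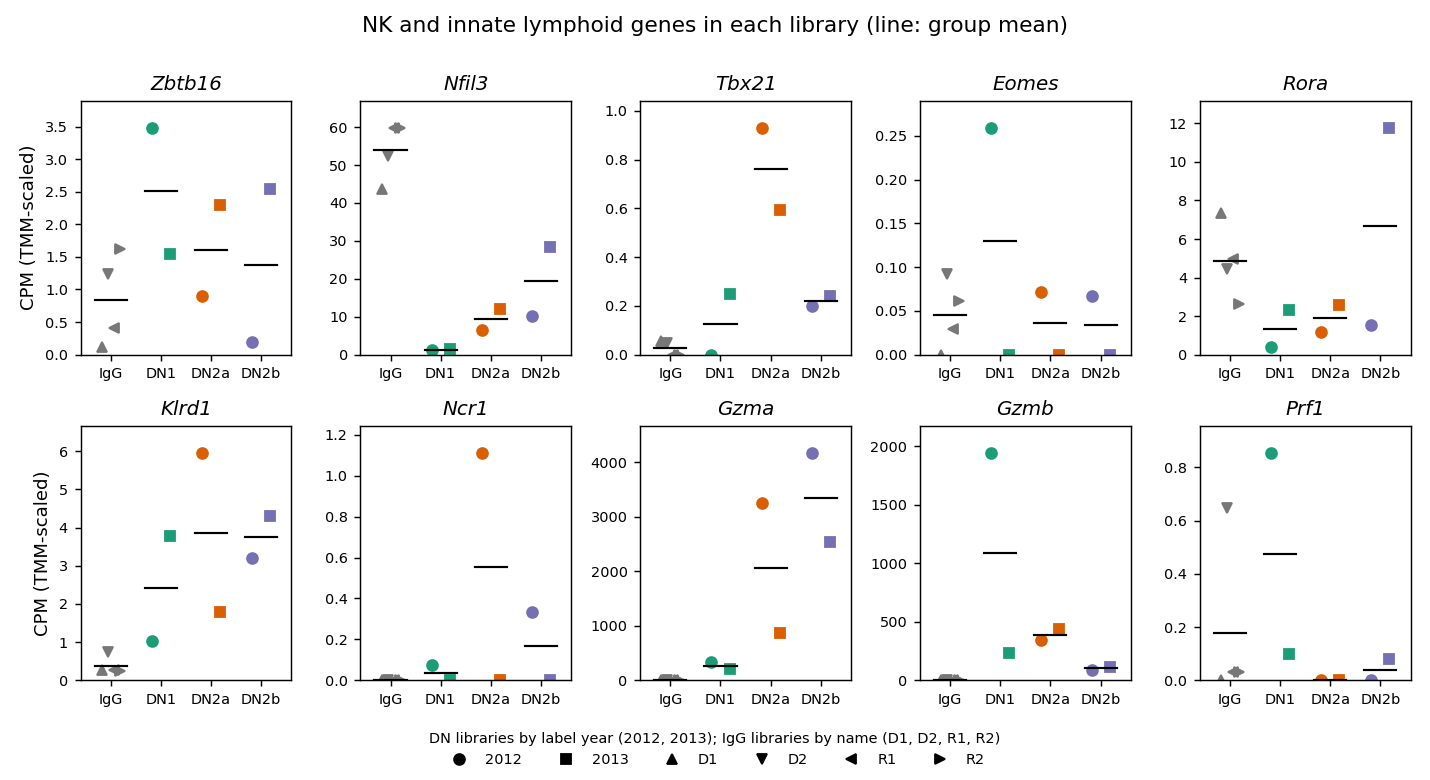
CPM (TMM-scaled, linear axes from 0) of the 10 NK and innate lymphoid genes in each library by group, with a line at the group mean. Gzma climbed to 4158 CPM in DN2b, Gzmb peaked at 1937 CPM in DN1 2012, Nfil3 was highest in IgG, and Tbx21, Eomes, Ncr1 and Prf1 were at most 1.11 CPM in every library.

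Of the 10 mast cell and basophil markers, 4 were high in the same library as *Gzmb*. *Mcpt4*, a mast cell chymase gene, was at 799.7 CPM in DN1 2012, 133 CPM in DN1 2013 and at most 5.37 CPM in the other 8 libraries. *Fcer1a* and *Ms4a2*, which encode the α and β chains of the high-affinity IgE receptor, were at 268 and 123 CPM in DN1 2012 and at 62.0 and 41.4 CPM in DN1 2013. In DN2a and DN2b these were at most 2.58 and 1.11 CPM. The other 6 (*Mcpt8*, *Prss34*, *Cma1*, *Tpsb2*, *Tpsab1* and *Hdc*) had lower means in DN1 than in IgG, and *Prss34* was at 2.93 CPM in DN1 2012 and at 9.13 to 46.8 CPM in IgG. Over the whole list the sum was 579.8 to 2232 CPM in DN1, 382 to 581 CPM in DN2a, 259 to 458 CPM in DN2b and 78.0 to 273 CPM in IgG. Most of the DN2a and DN2b sums was *Cpa3*, a mast cell protease gene, at 257 to 571 CPM. *Tpsab1* was at 0 in DN1, *Prss34*, *Tpsb2* and *Tpsab1* in DN2a, and these and *Cma1* in DN2b. The part of mast cells in the DN1 level of *Gzmb* was not tested. In bulk RNA, a change in the number of cells that express a gene and a change in RNA per cell cannot be told apart.

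**Figure D2:**
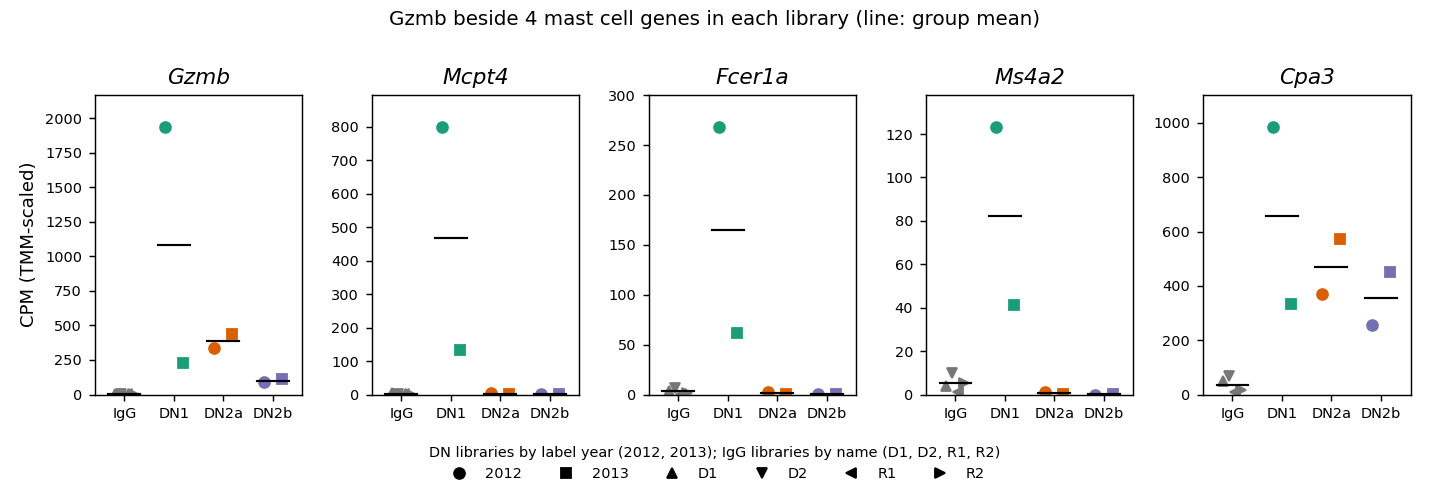
CPM (TMM-scaled, linear axes from 0) of Gzmb and of 4 mast cell genes in each library, with a line at the group mean. Mcpt4, Fcer1a and Ms4a2 were highest in DN1 2012 and next highest in DN1 2013, whereas Gzmb and Cpa3 were also present in DN2a and DN2b.

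The ratio of the granzymes between stages was not tested and is given as a description. Scaled to exon length, *Gzma* was 0.244 times *Gzmb* in DN1 2012 and 1.26 times in DN1 2013. The ratio was 13.7 and 2.80 in DN2a, and 65.7 and 32.6 in DN2b (2012 and 2013). The DN groups did not overlap and the order DN1, DN2a, DN2b held within each year. In IgG, with 3 to 10 counts of *Gzma*, the ratio was 0.195 to 1.02. Aligned reads were 36 bases long, and of the 36-base windows of *Gzmb* transcripts 0.999% also occurred in transcripts of another gene, all of them *Gzmc*, which is a neighbour in the granzyme cluster. No window of *Gzma* did.

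**Figure D3:**
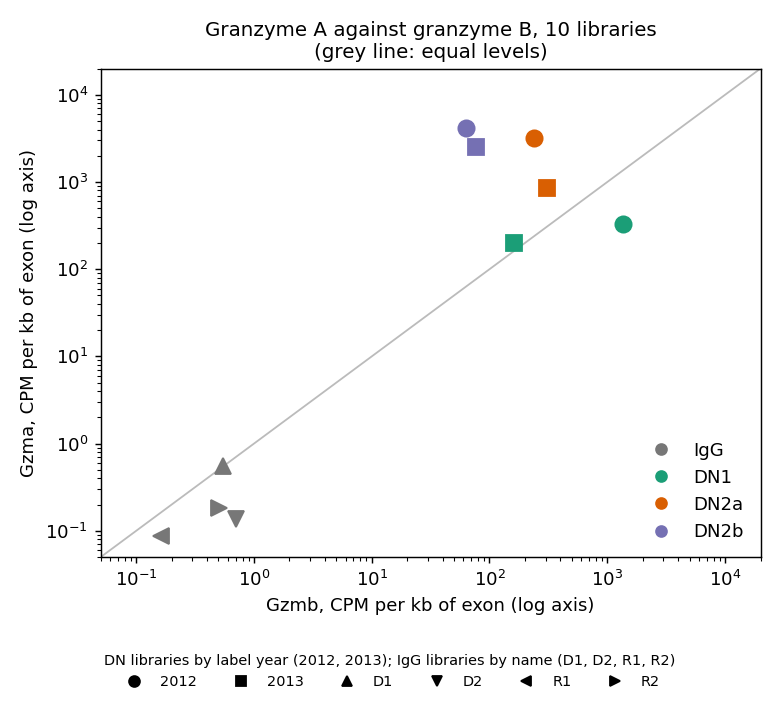
Gzma against Gzmb in CPM per kb of exon in each of the 10 libraries, both axes logarithmic, with a grey line at equal levels. DN2b lay farthest above the line (ratios 65.7 and 32.6), DN1 near or below it (1.26 and 0.244), and the IgG libraries at the lower left.

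*Prf1*, which encodes perforin, did not accompany the granzymes. It had 23 and 2 counts in DN1, 0 and 0 in DN2a, 0 and 1 in DN2b, and 0, 14, 1 and 1 in IgG. Most of the 42 counts in all libraries thus fell in DN1 2012 and IgG D2, and DN2a and DN2b were at the floor. A total of 0 in DN2a 2012 allows up to 3 counts of 27451369. The libraries of DN1 and of IgG differed among themselves, and no comparison of *Prf1* passed when it was fitted without the filter (adjusted p of at least 0.199).

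The receptor gene *Klrd1*, at chr6:129591782-129598775, was low in every group and higher in the DN groups. CD94 pairs with NKG2 receptors to read class I MHC. The IgG libraries were at 0.280, 0.737, 0.264 and 0.244 CPM, DN1 at 1.04 and 3.79 CPM, DN2a at 5.94 and 1.78 CPM, and DN2b at 3.20 and 4.30 CPM. All DN libraries lay above all IgG libraries, and the DN stages overlapped one another. The log2FC over IgG was 2.65 ± 0.75 in DN1 (adjusted p = 0.0254), 3.34 ± 0.75 in DN2a (adjusted p = 0.00647) and 3.29 ± 0.75 in DN2b (adjusted p = 0.00779). Between stages it was between -0.05 and 0.69, with adjusted p of at least 0.802.

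The DN1 call for *Klrd1* had the highest adjusted p of the 3. Without DN1 2012 the log2FC was 3.31 (adjusted p = 0.0206). Without DN1 2013 the log2FC was 1.45 (adjusted p = 0.261), and without IgG D1, R1 or R2 it was 2.48 to 2.54 with adjusted p of 0.0555, 0.0679 and 0.0567. The DN2a call was lost without DN2a 2012 (log2FC 2.22, adjusted p = 0.106) and the value was 3.96 without DN2a 2013. With D1 and D2 as the only controls none of the 3 calls held (log2FC 2.18, 2.85 and 2.83, adjusted p of 0.151, 0.0656 and 0.0733). *Klrd1* also stands on a promoter list that the study chose partly on the expression in these libraries, so its direction is not independent evidence.

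*Ncr1* was counted in 3 libraries only, all from 2012. It had 31 counts in DN2a 2012 (1.11 CPM), 5 in DN2b 2012 and 2 in DN1 2012, and 0 in the 3 libraries of 2013 and the 4 of IgG. It missed the filter. Fitted without the filter, DN2a over IgG passed (adjusted p = 0.0384), on counts from 1 library.

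Among the regulators, *Nfil3* went the other way. NFIL3 is a basic leucine zipper factor that NK cell and innate lymphoid progenitors need, and myeloid cells express it too. Its levels were 43.6, 52.3, 59.7 and 59.8 CPM in IgG, 1.15 and 1.45 CPM in DN1, 6.62 and 12.0 CPM in DN2a, and 10.3 and 28.4 CPM in DN2b. The IgG libraries were all above the DN libraries, DN1 was below both later stages, and DN2a and DN2b overlapped.

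Against IgG, *Nfil3* fell by 5.37 ± 0.54 on the log2 scale in DN1 (adjusted p = 0.000381), by 2.54 ± 0.46 in DN2a (adjusted p = 0.0024) and by 1.48 ± 0.43 in DN2b (adjusted p = 0.0212). Without DN1 2012 the DN1 value was -5.21 (adjusted p = 0.00424). The DN2b call was lost without DN2b 2012 (log2FC -0.92, adjusted p = 0.134) and with D1 and D2 as the only controls (log2FC -1.33, adjusted p = 0.104), and without DN2b 2013 the value was -2.38 (adjusted p = 0.00792). It rose in DN2b over DN1 by a log2FC of 3.90 ± 0.53 (adjusted p = 0.00977). That call was lost without DN1 2012 (log2FC 3.74, adjusted p = 0.0878) and when only DN1 and DN2b were fitted (adjusted p = 0.0967), and the value was 2.98 without DN2b 2013 (adjusted p = 0.0348). In DN2a over DN1 the log2FC was 2.84 ± 0.51 (adjusted p = 0.0607), which was 2.68 without DN1 2012 (adjusted p = 0.396). Without any 1 of the DN1, DN2a or IgG libraries the adjusted p was 0.0795 to 0.396, whereas the value passed without DN2b 2012 (adjusted p = 0.0379) or DN2b 2013 (adjusted p = 0.0386), with no filter (adjusted p = 0.0311) and by DESeq2 (adjusted p = 3.52e-05). In DN2b over DN2a it was 1.06 ± 0.47 (adjusted p = 1), and 0.97 with the year as a block (adjusted p = 0.999), with DN2b above DN2a in both date pairs. That value rested on DN2b 2013, without which it was 0.145 (adjusted p = 1), and it was 0.70 without DN2a 2012 (adjusted p = 1).

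Macrophage and neutrophil markers were highest in IgG too. The 6 macrophage markers summed to 1494 to 6444 CPM in IgG, 31.7 to 36.2 CPM in DN1, 9.23 to 14.03 CPM in DN2a and 12.5 to 44.4 CPM in DN2b, with *Mmp12* and *Msr1* at 0 in DN1 and *Msr1* at 0 in DN2b. The 7 neutrophil markers summed to 2.79 to 5.05 CPM in DN2a and 0.934 to 1.19 CPM in DN2b. Among the DN libraries, the macrophage sum and *Nfil3* were both highest in DN2b 2013, while the neutrophil sum was highest in DN1 2012. The 6 dendritic cell markers summed to 26.1 to 66.3 CPM in IgG, 26.8 to 40.2 CPM in DN2a and 6.14 to 13.0 CPM in DN2b. The part of these cells in the level of *Nfil3* was not tested.

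*Zbtb16* and *Rora* passed no comparison. PLZF, the zinc finger product of *Zbtb16*, marks a precursor of innate lymphoid cells, and RORα is needed for type 2 innate lymphoid cells. *Zbtb16* was at 0.112, 1.24, 0.411 and 1.62 CPM in IgG, 3.48 and 1.54 CPM in DN1, 0.895 and 2.30 CPM in DN2a, and 0.200 and 2.55 CPM in DN2b. *Rora* was at 7.33, 4.42, 4.96 and 2.62 CPM in IgG, 0.370 and 2.29 CPM in DN1, 1.18 and 2.60 CPM in DN2a, and 1.53 and 11.8 CPM in DN2b. The groups overlapped for both genes except that *Rora* in DN1 and in DN2a lay below IgG. The SD between libraries was largest in DN2b for both genes, and both were higher there in 2013. The log2FC of *Rora* was -1.87 ± 0.98 in DN1 over IgG (adjusted p = 0.173) and 2.33 ± 1.08 in DN2b over DN1 (adjusted p = 0.384), and that of *Zbtb16* in DN1 over IgG was 1.56 ± 1.07 (adjusted p = 0.292). Without DN1 2012 these were -1.07 (adjusted p = 0.495), 1.53 (adjusted p = 1) and 0.85 (adjusted p = 0.684). Without DN1 2013 the values of *Rora* were -3.68 (adjusted p = 0.0963) and 4.15 (adjusted p = 0.153), and in DN2b over DN1 *Rora* was at 3.15 without DN2b 2012 (adjusted p = 0.333) and 0.213 without DN2b 2013 (adjusted p = 0.976). *Rora* overlaps the antisense gene Gm15511 and *Eomes* the antisense gene Gm33460, and the strand setting of the counting was not given in the sources used here.

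The T-box factor genes were close to silent. *Tbx21*, which encodes T-BET, had 26 and 8 counts in DN2a (0.931 and 0.594 CPM), 0 and 5 in DN1, 3 and 3 in DN2b, and 1, 1, 0 and 0 in IgG. DN2a was higher than every other library. DN2a over IgG passed without the filter on low counts (adjusted p = 0.021) and with the filter of filterByExpr (adjusted p = 0.0161), against a control group at the floor. *Eomes* had 7 counts in DN1 2012 and at most 2 in every other library, and 2.47% of its 36-base windows occur in transcripts of other genes.

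Counted together, 4 of the 10 members, of which 6 were tested, passed in DN1 over IgG (3 higher, 1 lower). There, 31.4% of the 12221 genes tested passed (14.3% higher, 17% lower). The same 4 genes, *Gzma*, *Gzmb*, *Klrd1* and *Nfil3*, passed in the same directions in DN2a over IgG (45.5% of genes, 21.2% higher and 24.3% lower) and in DN2b over IgG (42.5%, 19.9% higher and 22.5% lower). These comparisons share the 4 control libraries. *Gzma*, *Gzmb* and *Klrd1* passed the filter only through the DN libraries, where these are high, so the count says little about the members as a set. In DN2b over DN1 *Gzma* and *Nfil3* passed, both higher, where 1.91% of genes did (1.01% higher, 0.892% lower). None passed in DN2a over DN1 (0.401% of genes, 0.196% higher and 0.205% lower) or in DN2b over DN2a (0% of genes) with edgeR. At an unadjusted p under 0.05 there were 2 members in each of these comparisons, where 10.9% and 2.74% of genes were. DESeq2 called 2 members in DN2a over DN1, where it called 3.91% of genes, and 0 in DN2b over DN2a, where it called 0.237%.

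**Figure D4:**
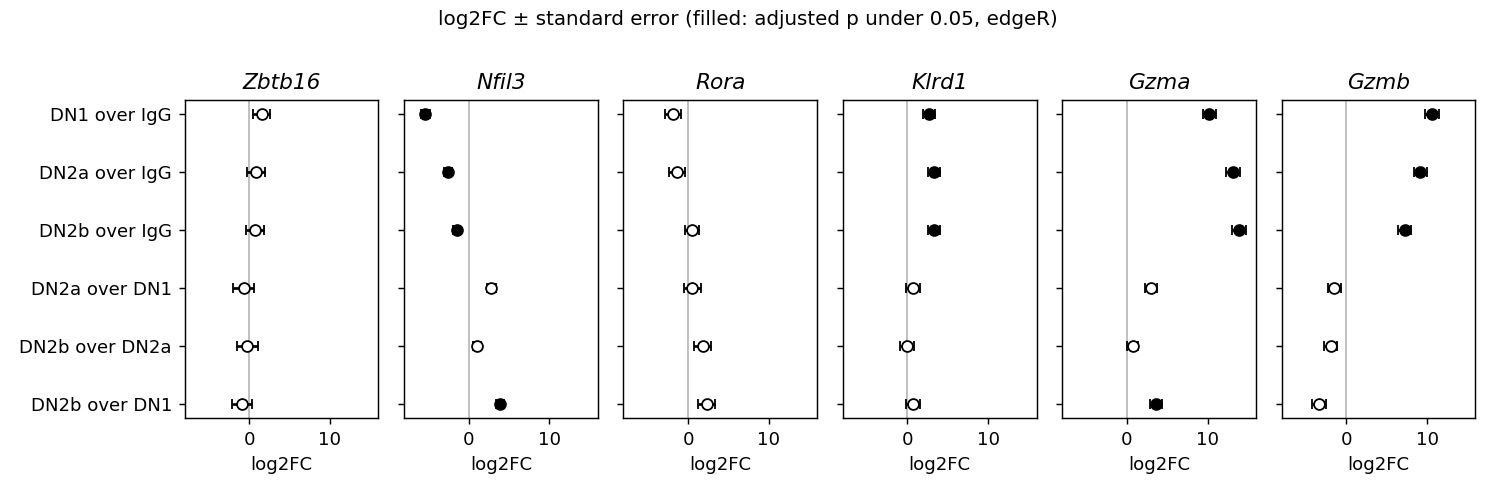
The log2FC of the 6 tested members in the 6 comparisons, with bars of 1 standard error and filled points for an adjusted p under 0.05. Gzma, Gzmb and Klrd1 were higher and Nfil3 lower in each DN group than in IgG, and in DN2b over DN1 only Gzma and Nfil3 passed.

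Of 14 further regulators of innate lymphoid development, 13 were tested. These counts, and those of the next lists, stand beside 31.4% of all genes tested in DN1 over IgG, 42.5% in DN2b over IgG and 1.91% in DN2b over DN1. Some genes reached the filter only through groups in which they are high. *Tox*, *Bcl11b*, *Cd160*, *Ctsw*, *Gzmc*, *Il9r* and *Tnfsf11* did so only through DN libraries, and *Slamf7* only through IgG. The calls and folds of these genes against IgG were thus made on genes picked by those groups. The counts against IgG therefore say little about the lists as sets. In DN1 over IgG 6 were higher and 4 lower (median log2FC 1.02, against 0.01 over all genes tested), and in DN2b over IgG 7 were higher and 5 lower (median 1.40, against -0.05). *Tcf7*, which encodes TCF1, a factor shared by T cells and innate lymphoid progenitors, was at 238 and 250.2 CPM in DN1 and 0.392 to 1.89 CPM in IgG (log2FC 7.87 ± 0.55, adjusted p = 6.91e-05). *Tox*, an HMG-box factor gene, was at 0 to 0.176 CPM in IgG, 4.93 and 5.48 CPM in DN1 and 15.1 and 21.2 CPM in DN2b (log2FC 8.08 ± 0.80 in DN2b over IgG, adjusted p = 0.000162). In DN2b over DN1 3 rose and none fell (median log2FC 0.90, against -0.02), among them *Bcl11b*, a T lineage commitment factor, by a log2FC of 3.66 ± 0.60 (adjusted p = 0.0205), and *Ets1* by 2.42 ± 0.45 (adjusted p = 0.0338). Most of these factors serve T cells as well. The study lists *Bcl11b* among the promoters that depend on a high Notch dose. That list was chosen partly on higher expression in DN2b than in DN1 and IgG here. The direction of *Bcl11b* is therefore not independent evidence. Without DN1 2012, where 22.9% of genes passed in DN1 over IgG and 0.462% in DN2b over DN1, 5 were higher and 2 lower in DN1 over IgG, among them *Tcf7* (adjusted p = 0.000337) and *Tox* (adjusted p = 0.00283). None passed in DN2b over DN1, with log2FC of 4.12 for *Bcl11b* (adjusted p = 0.0748) and 2.47 for *Ets1* (adjusted p = 0.193).

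Of 21 other NK receptor and adaptor genes, 11 were tested and 4 were at or under 3 counts in every library. In DN1 over IgG 4 were higher and 2 lower (median log2FC 1.33), in DN2b over IgG 3 and 2 (median 0.76), and in DN2b over DN1 1 was lower (median 0.35, or 0.24 with genes at the floor set to their bound). *Cd160*, which encodes a receptor of NK and T cells, was at 46.9 and 60.5 CPM in DN1, 158 and 129.6 CPM in DN2a, 131 and 106 CPM in DN2b, and 0 to 0.275 CPM in IgG (log2FC 8.29 ± 0.49 in DN1 and 9.44 ± 0.51 in DN2b, adjusted p = 5.42e-05 and 1.26e-05). *Slamf7*, which myeloid cells also express, was at 25.3 to 98.8 CPM in IgG and at the floor in DN1 and DN2b, at least 317-fold and 199-fold lower. *Tyrobp*, the gene of the adaptor DAP12, fell by 3.31 ± 0.67 on the log2 scale in DN2b over DN1 (adjusted p = 0.0426). It was highest in IgG, at 435 to 1185 CPM, against 246 and 261 CPM in DN1 and 12.3 and 38.9 CPM in DN2b. Without DN1 2012, 3 were higher and 1 lower in DN1 over IgG, *Cd160* (adjusted p = 0.00016) and *Slamf7* (adjusted p = 0.00634) among them, and none passed in DN2b over DN1, with -3.35 for *Tyrobp* (adjusted p = 0.143). *Klre1* was at 0 in every library, and *Klrc1* and *Klrc2*, the genes of NKG2 partners of CD94, were at 0 in IgG, DN1 and DN2b.

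Of 21 other cytotoxic granule genes, 14 were tested. In DN1 over IgG 2 were higher and 4 lower (median log2FC 0.15), in DN2b over IgG 3 and 4 (median 0.32), and in DN2b over DN1 1 was higher (median 0.15). *Ctsw*, the gene of cathepsin W, a protease of killer lymphocytes, was at 7.37 and 16.3 CPM in DN1, a mean of 11.9 CPM in DN2b, and at the floor in IgG, so that it was at least 70.5-fold higher in DN1 and 71.1-fold in DN2b. *Gzmc* had at most 4 counts in IgG, 34 and 21 in DN1, and 3 to 13 in DN2a and DN2b. It reached the filter only through the DN1 libraries (1.26 and 1.05 CPM), so that its call in DN1 over IgG (log2FC 3.86 ± 1.06, adjusted p = 0.0232) was made on a gene picked by that group. *Stx11*, a syntaxin gene needed for granule release, fell by 6.08 ± 0.89 on the log2 scale in DN2b over IgG (adjusted p = 0.001), and *Rab27a*, the gene of a GTPase that docks granules, rose by 1.84 ± 0.33 in DN2b over DN1 (adjusted p = 0.0299). Without DN1 2012, *Gzmc* missed the filter, and of the 13 genes tested 1 was higher, *Ctsw* (adjusted p = 0.000178), and 5 were lower in DN1 over IgG. None passed in DN2b over DN1, with 2.01 for *Rab27a* (adjusted p = 0.129). *Gzmd* was at 0 in every library, and *Ifng* had 2 counts, both in IgG D2.

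Of 26 receptors and cytokines of innate lymphoid cells, 17 were tested. In DN1 over IgG 11 were higher and 2 lower (median log2FC 2.76, or 2.63 with genes at the floor set to their bound), in DN2b over IgG 9 and 3 (median 2.17), and in DN2b over DN1 1 and 2 (median -0.08, or -0.06 with bounds). *Tnfsf11*, which encodes RANKL, was at 0.0370 and 2.04 CPM in DN1, 42.7 and 49.7 CPM in DN2a, and 69.5 and 119 CPM in DN2b, and was at the floor in IgG (at least 559.9-fold lower than DN2b). It rose in DN2b over DN1 by a log2FC of 6.54 ± 1.14 (adjusted p = 0.0258). *Il1rl1*, the gene of the IL-33 receptor of type 2 innate lymphoid cells and mast cells, was at 58.6 and 15.2 CPM in DN1 and at the floor in DN2b, at least 155-fold lower. *Il9r*, the gene of the IL-9 receptor, was at least 27.3-fold higher in DN1 than in IgG. Without DN1 2012, 9 were higher and none lower in DN1 over IgG, *Il9r* among them (at least 16.6-fold, adjusted p = 0.00547). In DN2b over DN1 1 was higher, *Tnfsf11* (log2FC 5.52, adjusted p = 0.0176), and none lower, with *Il1rl1* at least 63.7-fold lower (adjusted p = 0.125). *Il5* and *Il17a* were at 0 in every library.

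Genes whose levels followed a member most closely over the 10 libraries were found by Pearson's r of log2(CPM + 1). These are descriptions of libraries that share stages and depth. For *Gzma* they were *Sytl3* (r = 0.99), *Mrps6* (0.989) and *Gata3* (0.988), and for *Gzmb* they were *Arvcf* (0.991), *Gm15455* (0.989) and *Mtfmt* (0.982). For *Nfil3* they were *Glipr2* (0.967), *Plin3* (0.964) and *Slfn2* (0.963), and for *Klrd1* they were *Csl* (0.989), *Lamp3* (0.959) and *Fyttd1* (0.956). *Rora* was followed by *Cfl2* (0.966), *Ube2h* (0.949) and *Htra1* (0.934), and *Zbtb16* less closely by *Slc9a5* (0.879), *Sirt4* (0.851) and *Ccnt2* (0.845).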

How the data were processed

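Raw counts per gene symbol were deposited for 10 libraries. The authors made them from stranded total RNA libraries by aligning the first 36 bases of read 1 to mm10 with TopHat and counting with htseq-count in intersection-strict mode. The annotation and strand setting are not given in the sources used here. Reads with more than 1 alignment (16.4% to 30.1% of those tallied) were assigned to no gene, and the summary lines, 20.5% to 41.0% of each tally, were left out. The 12221 genes that reached 1 CPM in 2 or more libraries were fitted in 1 model of 4 groups with edgeR 4.0.16 in R 4.3.3 (TMM, quasi-likelihood test, Benjamini-Hochberg adjustment over all genes tested, threshold 0.05). The standard error is the size of the log2FC divided by the square root of F. CPM uses TMM-scaled library sizes. A gene at 3 counts or fewer in all libraries of a group was at the floor, and its fold is a bound against the largest floor of that group's libraries. Intervals of counts cover counting error only.

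By the study's methods, the DN stages were sorted from the same LSK isolates, so libraries of different stages are not independent, and the model took no account of this except where the year entered as a block. The labels do not name isolates. DN2a and DN2b libraries of a year share a date and pair by it, and DN1 shares only the year. Deviations from the group means of same-year libraries correlated at 0.451 between DN2a and DN2b, 0.189 between DN1 and DN2b and 0.0629 between DN1 and DN2a, over 12221 genes.

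The alternatives were DESeq2 1.42.0, library size scaling, no filter, filterByExpr, only the groups compared, subsets of the IgG libraries, each library left out, the year as a replicate block and a prior count of 2. All members are named. From each further list, the 2 genes with the largest fold among those called in DN1 over IgG, DN2b over IgG and DN2b over DN1 were named, and genes at or near 0 were added after values were seen, as were mast cell genes *Cpa3*, *Prss34*, *Tpsab1*, *Tpsb2*, *Cma1*, *Mcpt8* and *Hdc*. A gene that this rule also picked is not reported here. Members and lists were chosen with earlier results of these data known. Coordinates are from GENCODE vM21, promoter windows from RefSeq. Python 3.11.15 with numpy 2.4.6, pandas 2.3.3 and matplotlib 3.10.9 was used for summaries.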

Additional observations from a re-analysis of the deposited data

Results flagged for a closer look

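Over the 4 IgG libraries, 9 members had any spread, and in 2 of them a single library lay far from the other 3. *Klrd1* was at 0.738 CPM (16 counts) in D2, against 0.244 to 0.280 CPM in the others, a gap of 0.927 of the range. *Prf1* was at 0.645 CPM (14 counts) in D2, against 0 to 0.0305 CPM, a gap of 0.953 of the range. Chance flags about 1 in 20 such groups, and both flags fell on the same library. D2 also had the most genes above 0 counts of the IgG libraries (17089, against 15133 to 15407). Its neutrophil sum (67768 CPM, against 19028 to 38684 CPM) and mast cell and basophil sum (273 CPM, against 78.0 to 162 CPM) were the highest too. Its macrophage sum was not (1655 CPM, against 6444 CPM in D1). Whether these differences go together was not tested.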

How the results depend on the processing

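Of 648 values of the 36 log2FC of members under alternatives, 607 kept direction and side of the threshold, 20 lost the threshold, 7 gained it and 14 reversed. Every reversal came from leaving out 1 library and none was of a called value. Without 1 library the log2FC ranged from -2.06 to 1.58 for *Zbtb16* in DN2b over IgG, -1.49 to 0.0326 in DN2a over DN1, -2.95 to 0.69 in DN2b over DN2a and -3.62 to 0.0163 in DN2b over DN1. It ranged from -1.64 to 1.29 for *Rora* in DN2b over IgG, -0.29 to 2.32 in DN2a over DN1 and -0.29 to 2.65 in DN2b over DN2a. For *Klrd1* it ranged from -0.42 to 1.90 in DN2a over DN1, -0.66 to 1.07 in DN2b over DN2a and -0.0145 to 1.85 in DN2b over DN1, and for *Gzmb* in DN2a over DN1 from -2.32 to 0.76. Members called without 1 library numbered 3 to 4 in each comparison with IgG (15.5% to 34.3% of all genes tested in DN1, 22.1% to 49.6% in DN2a and 22% to 46.7% in DN2b), 0 to 1 in DN2a over DN1 (0% to 1.9%), 0 in DN2b over DN2a (0% to 0.00824%) and 0 to 2 in DN2b over DN1 (0.424% to 3.17%, and 0 members and 0.462% without DN1 2012). With D1 and D2 as the only controls, 2 were called in DN2b over IgG (27.2% of all genes tested). In DN2a over DN1, DESeq2 called 2 (3.91% of genes) and no filter 1 (0.536%). In DN2b over DN1, 1 was called with library size scaling (1.92% of genes), with only the groups compared (0.715%) and in the 6 DN libraries without a replicate block (1.65%). With the year as a replicate block in those 6 libraries 2 were called (2.06%), and the block changed no other count. Library size scaling moved the median log2FC of all genes from 0.01 to 0.272 in DN1 over IgG, from -0.029 to -0.225 in DN2a over DN1 and from -0.023 to -0.215 in DN2b over DN1, and turned no member's direction. Causes were not tested. Depth limits the precision of *Tbx21*, *Eomes*, *Ncr1* and *Prf1*, at 15 to 47 counts over all libraries.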

Other observations

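The year in the label moved with some members. All 38 counts of *Ncr1* and 10 of the 15 of *Eomes* fell in DN libraries of 2012, and none of either in DN libraries of 2013. Among the other NK receptor and adaptor genes, 15 of 21 were above 3 counts in DN2a 2012, at 27451369 reads on genes, and 10 of 21 in DN2a 2013, at 13916162. *Klrb1c*, which encodes NK1.1 and was chosen after its values were seen, went the other way, with 2.24, 5.05 and 4.61 CPM in DN1, DN2a and DN2b of 2013 and 1.19, 0.644 and 0.0667 CPM in those of 2012. With 1 library per stage and year these differences were not tested.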
